A study of Mus musculus with 4 samples.

Results

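The genes that present peptides to T cells and the genes of the interferon response were examined in Lgr5+ and Lgr6+ progenitors of the neonatal mouse cochlea. They were taken by gene symbol from the deposited table. The choice covered all H2- genes, genes of the Ifit, Ifitm, Irf and Stat families, and 12 named genes from *B2m* to *Ifngr2*. This gave 80 of the 23997 genes in the table, and 39 of them reached 1 FPKM, a fragment density scaled for transcript length and sequencing depth, in either population. Lgr5+ progenitors were EGFP+ cells sorted from postnatal day 3 cochleae of Lgr5-EGFP-IRES-CreERT2 mice, in which the reporter is driven from the *Lgr5* gene. Lgr6+ progenitors were EGFP+ cells of Lgr6-EGFP-IRES-CreERT2 mice of that age, sorted likewise, and all samples are labelled C57BL/6. The labels list 2 samples for each population, the methods describe 3 fractions split from 1 RNA extraction, and the table holds 1 combined FPKM value for each gene and population. No spread between replicates is therefore known, no test was made, and every difference given here compares these pooled values without a replicate check.

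Class I molecules sit on nearly all cells and show peptides from inside the cell to CD8+ T cells, while class II molecules are made mainly by macrophages, dendritic cells and B cells and show peptides taken up from outside. Interferons bind receptors that act through Janus kinases on STAT proteins, and STAT and IRF proteins then switch on antiviral genes and genes of antigen presentation. The cochlea has resident macrophages.

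Differences are on the log2(FPKM + 1) scale, with the Lgr5+ value subtracted from the Lgr6+ value, and on this scale the change of low genes is understated. A gene is called higher in a population when its FPKM reached 1 in either population and the difference was at least 1.5-fold on this scale, which is 0.585. Of the 13436 genes above this expression filter, 28.5% were called higher in Lgr6+ progenitors and 23.3% in Lgr5+ progenitors, 51.8% in all, with a median difference of 0.03. At 2-fold, 18.2% and 11.7% were called, 29.9% in all. Calls were thus common in the whole table. A value of 0 can be a failed estimate, so no ratio is given against it. The authors report a range of read numbers and of mapped shares over their samples, without saying which sample had which. Read depth could therefore not be assigned to either population, and the table lists no counts.

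Of the 12 class II genes, 6 were above the filter and had the higher value in Lgr5+ progenitors, with *H2-DMb2*, *Cd74* and *H2-DMb1* furthest apart. Only *H2-DMa* and *H2-DMb1* reached 1 FPKM in both populations, and the other 4 passed the filter only through Lgr5+ progenitors, which largely fixed their direction. Among the STAT genes 3 of 5, and among the interferon-induced effector genes 4 of 6, were called higher in Lgr6+ progenitors, including *Stat5a* and *Ifitm3*, while *Isg15* and *Stat2* were called higher in Lgr5+ progenitors. *Stat5a* and *Ifitm1* passed the filter only through Lgr6+ and *Isg15* only through Lgr5+ progenitors, which largely fixed their direction. Of the 4 STAT genes that reached 1 FPKM in both populations, 2 were called higher in Lgr6+ and 1 in Lgr5+ progenitors. Of the 4 such effector genes, 3 were called higher in Lgr6+ and 0 in Lgr5+ progenitors. The class I genes were mixed, with *B2m* 7.37 times as high in Lgr6+ as in Lgr5+ progenitors. Over the 39 genes, 12 were called higher in Lgr6+ progenitors and 14 in Lgr5+ progenitors, which is 30.8% and 35.9% of them beside the 28.5% and 23.3% of all genes. Their median difference was -0.17, beside 0.03 over all genes. Of the 39, 27 reached 1 FPKM in both populations, 9 in Lgr5+ progenitors only and 3 in Lgr6+ progenitors only. Of all 13436 genes above the filter, 712 reached it in Lgr5+ progenitors only and 1547 in Lgr6+ progenitors only. Among the 27, 9 were called higher in Lgr6+ and 6 in Lgr5+ progenitors, beside 21.4% and 22.5% of the 11177 genes that met the same requirement.

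Promoter sequences from RefSeq on GRCm38.p6 are shown for *B2m* and *Ifitm3*, both called higher in Lgr6+ progenitors, for *Ifitm2*, a neighbour of *Ifitm3* that was not called, and for *H2-DMb2*, called higher in Lgr5+ progenitors. Each runs from 250 bases before to 50 bases after the start of the gene, read along the strand of the gene. Capitals mark matches to 3 motifs searched on both strands, the interferon-stimulated response element (ISRE) core, in which GAAA occurs on both sides of 2 bases of any kind, the STAT-binding GAS motif TTCNNNGAA and the Y box ATTGG, known from MHC promoters. The windows are chr2:122147437-122147736 on the plus strand for *B2m*, chr7:141010695-141010994 and chr7:140955912-140956211 on the minus strand for *Ifitm3* and *Ifitm2*, and chr17:34144999-34145298 on the plus strand for *H2-DMb2*.
B2m: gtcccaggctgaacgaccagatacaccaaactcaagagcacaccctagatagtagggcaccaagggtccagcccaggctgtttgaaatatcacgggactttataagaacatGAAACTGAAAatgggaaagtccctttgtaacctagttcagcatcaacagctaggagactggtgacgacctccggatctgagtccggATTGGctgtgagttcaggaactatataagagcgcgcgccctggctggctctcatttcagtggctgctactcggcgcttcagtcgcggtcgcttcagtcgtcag
Ifitm3: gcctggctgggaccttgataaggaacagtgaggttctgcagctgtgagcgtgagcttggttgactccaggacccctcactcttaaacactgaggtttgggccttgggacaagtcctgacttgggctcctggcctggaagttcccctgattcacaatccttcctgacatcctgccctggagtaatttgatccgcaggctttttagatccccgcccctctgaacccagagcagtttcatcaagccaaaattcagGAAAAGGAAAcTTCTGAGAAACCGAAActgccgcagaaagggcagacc
Ifitm2: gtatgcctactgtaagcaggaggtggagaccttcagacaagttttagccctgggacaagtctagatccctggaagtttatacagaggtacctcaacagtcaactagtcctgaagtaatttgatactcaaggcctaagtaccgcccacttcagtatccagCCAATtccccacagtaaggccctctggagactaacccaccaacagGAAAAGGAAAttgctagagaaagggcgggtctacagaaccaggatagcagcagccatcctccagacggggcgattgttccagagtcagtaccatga
H2-DMb2: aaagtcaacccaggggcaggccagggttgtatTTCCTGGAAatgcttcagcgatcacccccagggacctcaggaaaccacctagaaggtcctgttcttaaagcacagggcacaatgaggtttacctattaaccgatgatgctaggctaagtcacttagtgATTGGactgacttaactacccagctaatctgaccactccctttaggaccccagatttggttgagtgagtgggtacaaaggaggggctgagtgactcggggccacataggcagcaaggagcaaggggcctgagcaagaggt

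In the *B2m* window the ISRE match lay from 139 to 130 bases before the start and the Y box from 53 to 49 bases before it. The *Ifitm3* window held 2 ISRE matches and a GAS match, all of them after the start, and the GAS match overlapped the later ISRE match. *Ifitm2* had an ISRE match with the same letters as the earlier one of *Ifitm3*, but from 46 to 37 bases before the start. It also had a Y box on the opposite strand. The *H2-DMb2* window held a GAS match and a Y box and no ISRE match. A match is a stretch of letters and not a measured binding site.

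**Figure D1:**
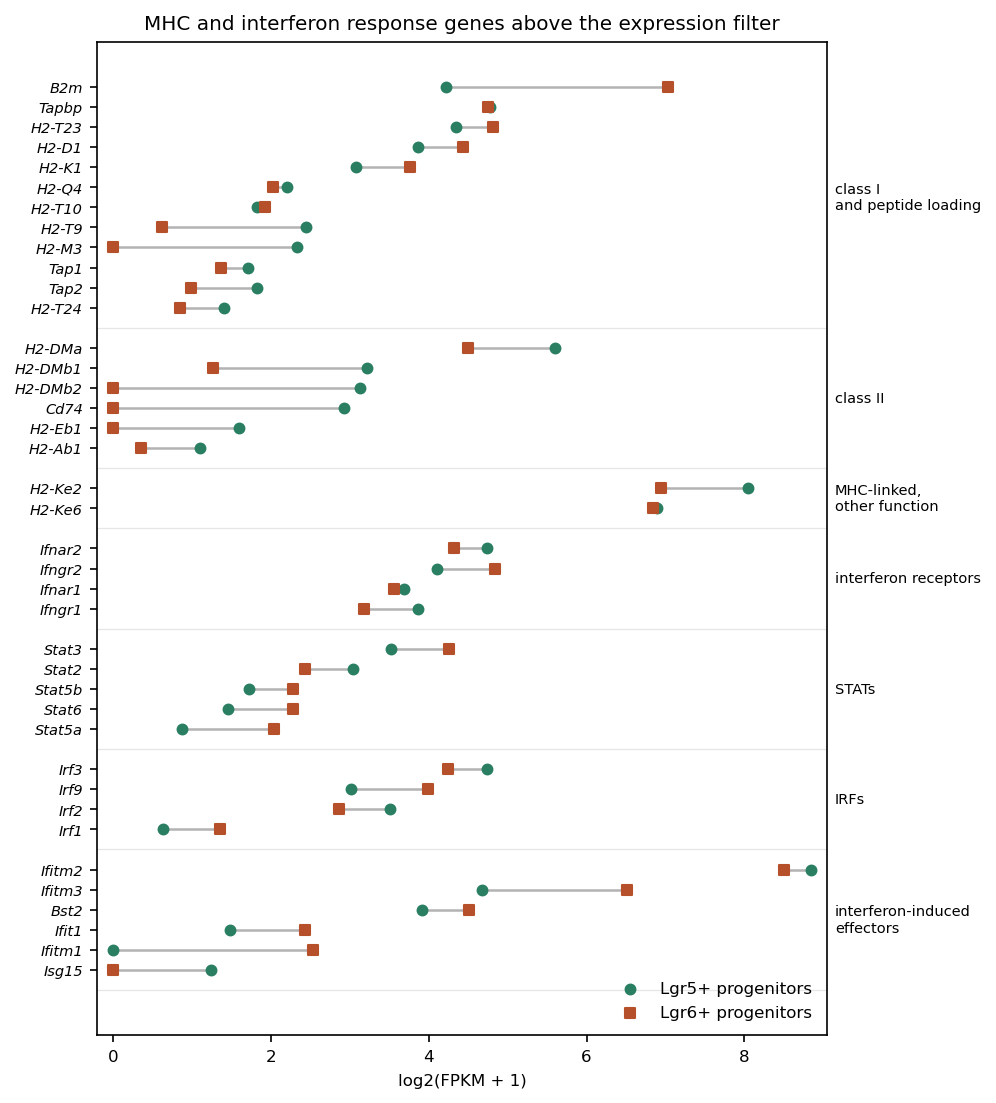
Levels of the 39 MHC and interferon response genes above the expression filter, as log2(FPKM + 1) on the horizontal axis, grouped by role and ordered by mean FPKM within each role. Circles are Lgr5+ and squares Lgr6+ progenitors, each 1 pooled value without error, and the 3 class II squares at 0 are *H2-DMb2*, *Cd74* and *H2-Eb1*.

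The class I light chain was far higher in Lgr6+ progenitors. Its difference was the largest positive one of these genes with a pseudocount of 1, and with 0.1 that of *Ifitm1*, at 0 in Lgr5+ progenitors, was larger, 5.60 against 2.87. *B2m*, which encodes the β2-microglobulin subunit that every class I molecule needs, had 17.6 FPKM in the Lgr5+ and 129.7 FPKM in the Lgr6+ population, a log2 difference of 2.81. It ranked 4606 in Lgr5+ and 780 in Lgr6+ progenitors among the 13436 genes. Its interval in the table (chromosome 2, 122120108–122186189) also carries *Patl2* and *Trim69*, which were listed at 0 in both populations.

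The heavy chains of the classical class I molecules differed less than *B2m*. *H2-K1* (chromosome 17, 33996012–34000333) had 7.46 FPKM in the Lgr5+ and 12.5 FPKM in the Lgr6+ population, a log2 difference of 0.68, and was called. *H2-D1* (chromosome 17, 35263094–35267497) had 13.5 and 20.6, a log2 difference of 0.576 that fell just short of the threshold. The Lgr6+ values of *H2-K1* and *H2-D1* were 1.68 and 1.53 times the Lgr5+ values, *H2-K1* was not called at 2-fold, and *B2m* was above both genes in each population. Class I heavy chain genes are close in sequence to each other, so the counting of fragments could have divided them wrongly between these genes. *H2-L* carries the same interval as *H2-D1* and was listed at 0 in both populations.

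The nonclassical class I genes lay on either side. *H2-T23* encodes Qa-1, a ligand for receptors of natural killer cells, and had 19.4 FPKM in the Lgr5+ and 27.1 FPKM in the Lgr6+ population, a log2 difference of 0.46. *H2-M3*, whose product presents N-formylated peptides such as those of bacteria, had 4.02 in Lgr5+ progenitors and was listed at 0 in Lgr6+ progenitors. *H2-T9* had 4.45 and 0.536, a log2 difference of -1.83. It shares its interval with *H2-T22*, at 0.000118 and 2.31e-05, and the sum over both genes differed by -1.83. The shared interval leaves it uncertain which of these paralogs the fragments came from. *H2-T24* had 1.65 and 0.796 and shares an interval with *H2-T23*. *H2-Q4* had 3.61 and 3.08 and *H2-T10* had 2.52 and 2.80, both short of the threshold.

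The genes that load peptide onto class I were not higher in Lgr6+ progenitors. *Tapbp* encodes tapasin, which holds class I molecules at the peptide transporter, and had nearly equal values of 26.4 FPKM in the Lgr5+ and 25.9 FPKM in the Lgr6+ population. The transporter subunits *Tap1* and *Tap2* stood at 2.27 and 2.53 FPKM in the Lgr5+ population and at 1.59 and 0.979 FPKM in the Lgr6+ population. *Tap2* was called higher in Lgr5+ progenitors, with a log2 difference of -0.83, and *Tap1* was not called. Of the 12 genes of class I and peptide loading above the filter, 2 were called higher in Lgr6+ and 3 in Lgr5+ progenitors, and their median difference was -0.10. All 3 of the latter passed the filter only through Lgr5+ progenitors, and over the 8 genes that reached 1 FPKM in both populations the median was 0.28. When a minimum FPKM of 5 was asked for, the median was 0.58, since the low genes that were higher in Lgr5+ progenitors dropped out.

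Of the class II genes, *H2-DMa* and *H2-DMb1* alone reached 1 FPKM in both populations, and both were called higher in Lgr5+ progenitors. *H2-DMa* encodes a chain of the H2-DM molecule, which exchanges peptides on class II in endosomes, and was the most abundant of them. Its interval is 34122832–34139101 on chromosome 17, and it had 47.6 FPKM in the Lgr5+ and 21.6 FPKM in the Lgr6+ population, or a ratio of 2.20. The genes of its partner chain differed more. *H2-DMb1* had 8.26 in Lgr5+ and 1.41 in Lgr6+ progenitors, a ratio of 5.85, and *H2-DMb2* had 7.78 in Lgr5+ progenitors and was listed at 0 in Lgr6+ progenitors. *H2-DMb1* and *H2-DMb2* are near copies, so their split is uncertain, although both were higher in the same population.

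The genes of the class II molecules themselves were low. *Cd74* (chromosome 18, 60803849–60812652) encodes the invariant chain that escorts class II to the endosome. It stood at 6.59 FPKM in the Lgr5+ population and was listed at 0 in the other. *H2-Eb1* had 2.01 in Lgr5+ progenitors and was listed at 0 in Lgr6+ progenitors, and *H2-Ab1* had 1.14 and 0.280. *H2-Aa*, the partner chain of *H2-Ab1*, was listed at 0 in both populations, and *H2-Ea-ps*, a pseudogene, likewise. *Ciita* encodes the coactivator that class II genes depend on and stood at 0.0264 FPKM in the Lgr5+ population and at 0 in the other. H2-DM transcripts were thus listed in both populations, while *H2-Aa* and *Ciita* were at or near 0 in both. Of the 6 genes above the filter, 4 were at 0.280 FPKM or less in Lgr6+ progenitors and passed only through Lgr5+ progenitors, so their shared direction is no separate result. The median difference of the 6 genes was -1.77, and -1.52 over *H2-DMa* and *H2-DMb1* alone. The median of the 6 moved to -3.43 with a pseudocount of 0.1 in place of 1 and to -0.39 when the other 6 class II genes below the filter were included.

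Macrophage marker genes had the higher values in Lgr6+ progenitors. Of 15 such genes, 14 were in the table and 12 above the filter, and these 12 were called higher in Lgr6+ progenitors, with a median difference of 3.17. Of the 12, 10 passed the filter only through Lgr6+ progenitors, which set their direction, and over *Cd68* and *Laptm5*, which reached 1 FPKM in both populations, the median was 1.06. The summed FPKM of all 14 genes was 25.9 in Lgr5+ and 322.7 in Lgr6+ progenitors, of which *Laptm5* alone had 20.7 and 36.6. *C1qb*, *C1qc*, *Tyrobp*, *Aif1* and *Csf1r* were listed at 0 in Lgr5+ progenitors. *Ptprc*, found in all leukocytes, was at 0 in Lgr5+ and at 0.00814 in Lgr6+ progenitors. Of 7 lymphocyte markers 1 was above the filter, *Cd79a*, which was listed at 0 in Lgr5+ progenitors and at 2.39 in Lgr6+ progenitors, and *Ms4a1* and *Cd3e* were listed at 0 in both. Marker genes of endothelial cells, which are known to carry class I, summed to 19.3 in Lgr5+ and 122 in Lgr6+ progenitors, and 9 of 10 were called higher in Lgr6+ and 1, *Tie1*, in Lgr5+ progenitors. Of these 10, 4 reached 1 FPKM in both populations, and all 4 were called higher in Lgr6+ progenitors. Most macrophage and endothelial markers were called higher in Lgr6+ progenitors, as were *B2m*, *Ifitm3* and 28.5% of all genes above the filter. The part of these markers in the differences of *B2m* and *Ifitm3* and in the class II values was not tested. In pooled cells such as these, a smaller number of cells of a type and less RNA per cell cannot be told apart.

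The sorted populations were also checked against genes of the sort. *Lgr5* had 9.65 FPKM in the Lgr5+ and 24.99 FPKM in the Lgr6+ population, and *Lgr6* had 2.06 and 2.90, so neither transcript was higher in the Lgr5+ population. The paper describes Lgr6+ cells as a subpopulation of Lgr5+ cells, so *Lgr5* need not separate the populations. It checked its sorts by re-sorting, immunostaining and q-PCR. In that q-PCR each population was compared with its EGFP-negative cells. *Sox2*, a supporting cell gene, had 140 and 54.8, and all 10 supporting cell markers were above the filter in the table. Of these markers 3 were called higher in Lgr5+ and 1 in Lgr6+ progenitors.

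Among genes that carry an H2- symbol without an antigen presenting product, *H2-Ke2* encodes a subunit of prefoldin, a chaperone of newly made actin and tubulin, and is named *Pfdn6* in RefSeq. It had 264 FPKM in the Lgr5+ and 122 FPKM in the Lgr6+ population, a log2 difference of -1.11, and ranked 454 and 828. *H2-Ke6*, which encodes a hydroxysteroid dehydrogenase, had 118 and 114 and was not called. These 2 genes were the most abundant H2- symbols and made up most of the summed FPKM of the 44 H2- genes, 506 in Lgr5+ and 326 in Lgr6+ progenitors. An H2- total would thus mainly describe genes outside antigen presentation.

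**Figure D2:**
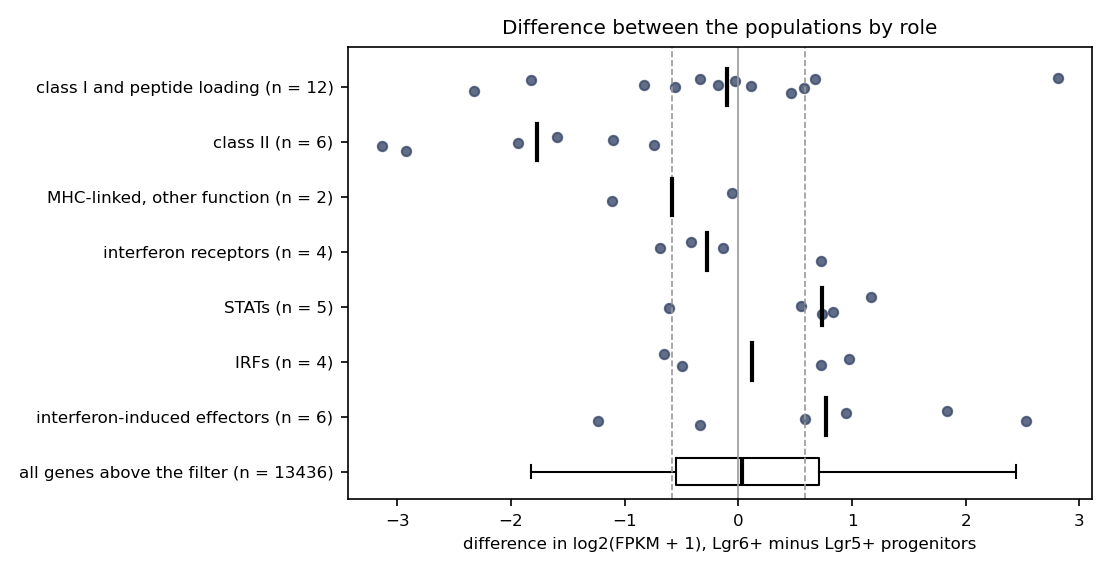
Difference in log2(FPKM + 1), Lgr6+ minus Lgr5+ progenitors, for each gene above the filter by role. Points are genes, thick bars medians, dashed lines the 1.5-fold threshold, and the box shows the quartiles of all 13436 genes with whiskers at percentiles 2.5 and 97.5 (-1.83 and 2.44). The 6 class II points lie left of the threshold, 4 of them genes that passed the filter only through Lgr5+ progenitors.

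All 4 interferon receptor genes were above the filter. The type I receptor binds interferon-α and -β through *Ifnar1* and *Ifnar2*, and neither was called. *Ifnar1* had 11.9 FPKM in the Lgr5+ and 10.7 FPKM in the Lgr6+ population, and *Ifnar2* had 25.6 and 18.9. The interferon-γ receptor chains differed in opposite directions. *Ifngr1*, the ligand-binding chain (chromosome 10, 19591958–19610225), had 13.5 and 8.02, a log2 difference of -0.69. *Ifngr2*, the accessory chain (chromosome 16, 91547094–91564007), had 16.2 and 27.6, a log2 difference of 0.73. The level of *Ifngr2* was above that of *Ifngr1* in both populations, and the gap between them was wider in Lgr6+ progenitors.

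*Stat2*, which carries the type I interferon signal, had 7.23 FPKM in the Lgr5+ and 4.38 FPKM in the Lgr6+ population, a log2 difference of -0.61. It was called higher in Lgr5+ progenitors, and the other called STAT genes described here were higher in Lgr6+ progenitors. *Stat3*, which answers to the interleukin-6 family, was the most abundant of these STAT genes with 10.5 and 18.1, a log2 difference of 0.74. *Stat5a* had 0.823 and 3.10, *Stat5b* had 2.31 and 3.84, and *Stat6*, which acts downstream of interleukin-4, had 1.73 and 3.86. *Stat5a* and *Stat6* were called and *Stat5b* was not, and *Stat6* shares its interval with *Nab2*. *Stat4* was at 0.0927 and 0.0278. The median difference of the 5 STAT genes above the filter was 0.74, and it was 0.06 at a minimum FPKM of 5, where 2 genes were left.

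The IRF genes lay on either side. *Irf3*, which is activated downstream of nucleic acid sensors, had 25.7 FPKM in the Lgr5+ and 18.0 FPKM in the Lgr6+ population and was not called. *Irf9*, whose product joins that of *Stat2* in a complex that binds the ISRE, had 7.10 and 14.9, a log2 difference of 0.97. *Irf2*, best known as a repressor of interferon-induced genes, had 10.4 and 6.25, a log2 difference of -0.66. *Irf1*, an activator induced by interferon-γ, had 0.543 and 1.55, a log2 difference of 0.73. The median difference of these 4 IRF genes was 0.12, and it was -0.10 after quantile normalization and -0.49 at a minimum FPKM of 5. A further 4 were below the filter, with *Irf8* at 0.843 and 0.889, *Irf7* at 0.738 and 0, *Irf4* at 0 and 0.176, and *Irf5* at 0 in both. After quantile normalization *Irf1* and *Stat6* no longer reached 1.5-fold, with 0.28 and 0.55.

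Among the interferon-induced effectors, the Ifitm genes encode membrane proteins that block the entry of viruses. *Ifitm2* (chromosome 7, 140954839–140955961) was the most abundant of all 80 genes, with 457 FPKM in the Lgr5+ and 361 FPKM in the Lgr6+ population, a log2 difference of -0.34. It ranked 288 and 293 in the populations. *Ifitm3* (chromosome 7, 141009590–141010744) had 24.6 and 90.5 FPKM, a log2 difference of 1.83 and a ratio of 3.67. *Ifitm1* (chromosome 7, 140967429–140969827) was listed at 0 in the Lgr5+ population and at 4.76 FPKM in the other. The 3 neighbours on chromosome 7 thus differed by 2.53 and 1.83 in *Ifitm1* and *Ifitm3* and by -0.34 in *Ifitm2*. The promoter windows of *Ifitm2* and *Ifitm3* both hold an ISRE match, and that of *Ifitm1* holds no ISRE, GAS or Y box match. *Ifitm10*, *Ifitm7*, *Ifitm5* and *Ifitm6* were below the filter, at 0.867 or less.

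*Bst2*, which encodes tetherin and holds budding viruses at the cell surface, had 14.1 FPKM in the Lgr5+ and 21.7 FPKM in the Lgr6+ population, a log2 difference of 0.590 that lay just past the threshold. *Ifit1*, whose product binds viral RNA ends, had 1.80 and 4.40, a log2 difference of 0.95. *Isg15* encodes a ubiquitin-like protein that is among the genes most readily induced by interferon, and stood at 1.35 FPKM in the Lgr5+ population and at 0 in the other. *Ifit2* was listed at 0 and 0.937 and *Ifit3* at 0 in both, so neither passed the filter. Of the 6 effector genes above the filter, *Isg15* alone was called higher in Lgr5+ progenitors, and it passed the filter only through them. The median difference of the 6 genes was 0.77.

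The 41 genes below the filter were mostly class I paralogs. Of the 80 genes, 26 were listed at 0 in both populations, 6 in Lgr5+ progenitors only and 9 in Lgr6+ progenitors only. Of all 23997 genes, 7592 were at 0 in both, 1847 in Lgr5+ progenitors only and 623 in Lgr6+ progenitors only. Class I and peptide loading held 23 of the 41, among them the 6 genes from *H2-M10.1* to *H2-M10.6*, *H2-M1*, *H2-M9*, *H2-M11*, *H2-Q2*, *H2-Q5*, *H2-Q6*, *H2-Q8*, *H2-Q9*, *H2-Q10*, *H2-T3*, *H2-Bl* and *H2-L*, all at 0 in both. *H2-Q7*, *H2-M5*, *H2-M2*, *H2-Q1* and *H2-T22* had FPKM values of 0.136 or less. In class II, *H2-Eb2* had 0.0424 and 0.00753 and *H2-Oa* and *H2-Ob* were at 0 in both, as was *H2-K2*. Fragments that match several paralogs equally can be lost or shared between them, so a 0 in these families is a listed value only.

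Other genes of these pathways were described from 4 lists of 93 genes in all, 65 of which were above the filter. Of the 65, 23 were called higher in Lgr6+ and 12 in Lgr5+ progenitors, which is 35.4% and 18.5% beside 28.5% and 23.3% of all genes. After quantile normalization the numbers were 17 and 16, and among the 42 genes that reached 1 FPKM in both populations they were 9 and 7. In the list of interferon ligands and Janus kinases, the 9 interferon genes were listed at 0 in both populations. Of its 12 genes above the filter 2 were called in each direction. *Jak1*, the kinase shared by the interferon receptors, had the highest FPKM, 27.2 in Lgr5+ and 25.8 in Lgr6+ progenitors. *Usp18*, which removes *Isg15* product from proteins and dampens interferon signalling, had 0.0908 and 1.55, and *Jak3* had 3.97 and 0.756.

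In the list of antigen processing and MHC gene control, 7 of 20 genes were called higher in Lgr6+ and 3 in Lgr5+ progenitors. These shares were 35% and 15%, beside 28.5% and 23.3% of all genes, and the median difference was 0.18. Over the 15 genes that reached 1 FPKM in both populations the median was 0.05, with 3 called higher in Lgr6+ and 2 in Lgr5+ progenitors. *Psmb8*, *Psmb9*, *Ctss* and *Erap1* passed the filter only through Lgr6+ progenitors, which largely fixed their direction. The 3 catalytic subunits of the immunoproteasome, which cuts peptides for class I, were all among the 7 called higher in Lgr6+ progenitors. *Psmb8* was listed at 0 in Lgr5+ and at 7.31 in Lgr6+ progenitors, *Psmb9* had 0.829 and 14.5, and *Psmb10* had 13.98 and 36.1. These 3 were singled out after their values were seen. *Ctss*, the protease that trims the invariant chain and also 1 of the macrophage markers, had the largest difference of the list, with 0.101 and 8.63. *Rfxank*, a subunit of the factor that binds class II promoters, had 10.2 and 4.92, the largest difference toward Lgr5+ progenitors. *Calr*, a chaperone of class I folding, had the highest FPKM, 389 and 314. *Nlrc5*, the coactivator of class I genes, was at 0.01 or less in both populations.

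Of 25 other interferon-induced genes above the filter, 10 were called higher in Lgr6+ and 6 in Lgr5+ progenitors, with a median difference of 0.38. These shares were 40% and 24%, beside 28.5% and 23.3% of all genes. The median was -0.01 after quantile normalization, -0.09 at a minimum FPKM of 5, and -0.05 over the 12 genes that reached 1 FPKM in both populations, where 3 were called in each direction. *Oas1a*, a sensor of double-stranded RNA, was listed at 0 and 2.80 and had the largest difference toward Lgr6+ progenitors. *Mx2* was listed at 1.91 and 0, the largest toward Lgr5+ progenitors, and *Ifi27* had the highest FPKM, 9.91 and 31.7. Within the OAS family the directions were mixed, since *Oas2* had 1.34 and 0 and *Oasl2* had 2.11 and 0.0991. Among 8 nucleic acid sensor genes above the filter 4 were called higher in Lgr6+ and 1 in Lgr5+ progenitors, with a median difference of 0.66. These shares were 50% and 12.5%. Over the 5 that reached 1 FPKM in both populations, 2 and 1 were called and the median was 0.18. Of all genes that reached 1 FPKM in both populations, 21.4% and 22.5% were called. *Mavs* and *Ikbke* passed the filter only through Lgr6+ progenitors. *Mavs*, the adaptor of RNA sensors, had 0.0781 and 3.40, *Ticam1*, an adaptor of Toll-like receptors, had 4.05 and 1.01, and *Tmem173*, which encodes STING, had 18.4 and 36.3.

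**Figure D3:**
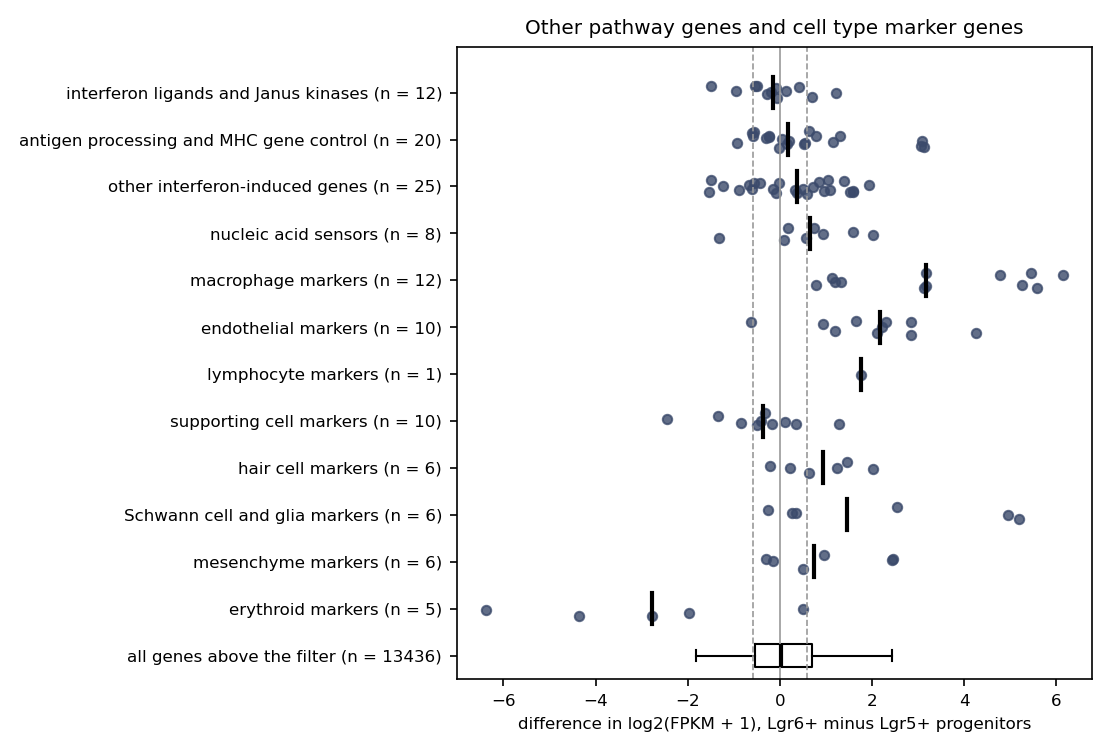
Difference in log2(FPKM + 1), Lgr6+ minus Lgr5+ progenitors, for genes above the filter in the 4 pathway lists and 8 cell type marker lists. Points are genes, thick bars medians, dashed lines the 1.5-fold threshold, and the box shows all genes as quartiles with whiskers at percentiles 2.5 and 97.5. The 12 macrophage markers lie right of the threshold, 10 of them genes that passed the filter only through Lgr6+ progenitors.

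The remaining marker lists also differed between the populations. Hair cell markers had a median difference of 0.94, Schwann cell and glia markers 1.45 and mesenchyme markers 0.73, with 4 of 6, 3 of 6 and 3 of 6 genes called higher in Lgr6+ and none in Lgr5+ progenitors. Erythroid markers went the other way, with a median of -2.78 and 4 of 5 genes called higher in Lgr5+ progenitors, 2 of which passed the filter only there. Their summed FPKM was 630 in Lgr5+ and 108 in Lgr6+ progenitors. The part of these lists in the class II and interferon values was not tested.

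Motif matches were counted over the promoter windows of 65 of the 80 genes that matched RefSeq, 33 of them above the filter. *H2-T10*, *H2-T9*, *Tap2*, *H2-T24*, *Cd74* and *H2-Ab1* were above the filter and had no window. The ISRE core was found in 9 of the 33 genes, 27.3%, beside 3.33% of the 10036 genes above the filter with a window. These were *B2m*, *H2-T23*, *Stat2*, *Irf2*, *Ifitm2*, *Ifitm3*, *Bst2*, *Ifit1* and *Isg15*. Genes with this motif were found in both directions, since *B2m*, *Ifitm3*, *Bst2* and *Ifit1* were called higher in Lgr6+ progenitors and *Stat2*, *Irf2* and *Isg15* in Lgr5+ progenitors. The GAS motif was found in 8 of the 33 genes, 24.2% beside 7.97%. The Y box was found in all 8 class I and peptide loading genes and all 4 class II genes with a window above the filter, beside 42.4% of the genes above the filter. Over all 32851 windows, the shares were 3.44% for the ISRE core, 8.3% for GAS and 37.4% for the Y box.

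**Figure D4:**
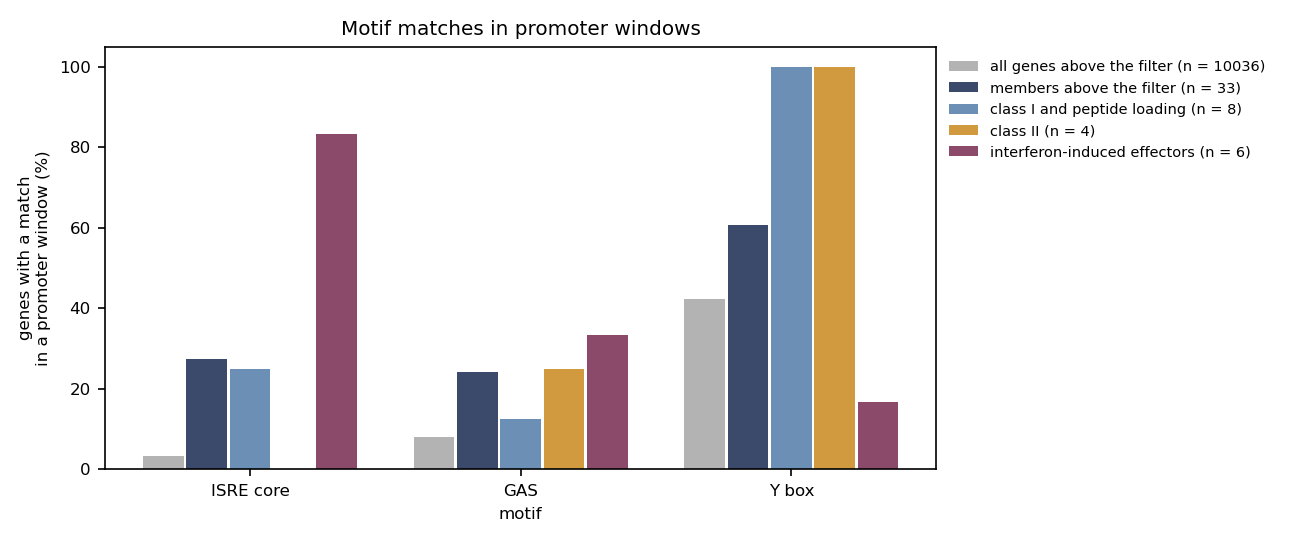
Share of genes, in percent, with at least 1 match in a promoter window for the ISRE core, GAS and Y box motifs. Bars are all genes above the filter with a window, the 33 members among them, and 3 roles of 8, 4 and 6 genes; the ISRE core reaches 83.3% in the interferon-induced effectors and 0 in class II.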

How the data were processed

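The data were 1 deposited RNA-Seq table of sorted Lgr5+ and Lgr6+ progenitors. Trimmomatic, TopHat and Cufflinks were the authors' programs for trimming, mapping and quantification, and the authors combined replicates into 1 FPKM value per gene and population. Versions are not given in the sources used here. The methods name mm9 and the submitters' processing notes mm10. Of 22369 gene symbols on the same chromosome in RefSeq, 99.4% of the table's intervals overlapped the gene on GRCm38.p6, so positions are read as GRCm38. Starts in the table lay 1 base below the RefSeq start for 11294 genes, so they were raised by 1.

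The table also holds fold changes, p-values and q-values of the authors' own comparison, which were not used. Groups came from the sample titles. The planned limma fit, replicate block and leaving out of replicates need values of single samples, so none was run and no p-value is given. Genes that reached 1 FPKM in either population were kept, a pseudocount of 1 was added before taking log2, and 1.5-fold was the threshold for a call. Alternatives were a pseudocount of 0.1, no filter, a minimum FPKM of 5, a minimum of 1 FPKM in each population, equal upper quartiles, quantile normalization, a 2-fold threshold and, added after seeing the data, summed rows of members with a shared interval. Every member above the filter was named, except that 2 members and 1 marker gene are not reported here and enter no member count. Of the lists, the genes with the highest FPKM and the largest differences were named, and other list genes after their values were seen. The members and lists were chosen with earlier results of these data known. Scripts ran under Python 3.11.15 with pandas 2.3.3, numpy 2.4.6 and matplotlib 3.10.9 and were tested on simulated data. The depth of single libraries is unknown, so no counting intervals are given.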

Additional observations from a re-analysis of the deposited data

How the results depend on the processing

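No paired analysis was possible because the table holds 1 combined value per population, and for the same reason the replicate block and the leaving out of replicates were not run. Of the 26 calls, 13 held under each of the 8 alternatives that kept the gene, and no called difference changed sign. Of these 13, only *B2m*, *Ifitm3*, *H2-DMa*, *H2-DMb1* and *H2-Ke2* were above the filter in every setting. The others, among them *Ifitm1*, *Stat5a*, *Cd74*, *H2-DMb2* and *Isg15*, had passed the filter through 1 population only, which largely fixed their direction. The 39 genes gave 12 calls toward Lgr6+ and 14 toward Lgr5+ progenitors, with 23 and 12 over the pathway lists. At the 2-fold threshold the numbers were 4 and 9 (15 and 5 over the pathway lists, 18.2% and 11.7% of all genes). At a minimum FPKM of 5 they were 7 and 8 of 23 (10 and 5, 24.1% and 24.1%), and where each population had to reach 1 FPKM 9 and 6 of 27 (9 and 7, 21.4% and 22.5%). The median of the IRF genes, 0.12, was -0.49 in each of the last 2 settings and -0.10 after quantile normalization, and that of the other interferon-induced genes, 0.38, was -0.09, -0.05 and -0.01. The fewer genes tested in those 2 settings lower the counts. A pseudocount of 0.1 moved the medians of class II, macrophage and lymphocyte genes to -3.43, 5.05 and 4.64. Without the filter, class II moved to -0.39 and lymphocyte genes to 0. At a minimum FPKM of 5, class I and peptide loading moved to 0.58, class II to -2.43, the STAT genes to 0.0616 and macrophage genes to 3.98. Where each population had to reach 1 FPKM, macrophage, Schwann cell and glia, and erythroid genes moved to 1.06, 0.35 and -1.98. After quantile normalization 10 genes were higher in Lgr6+ and 16 in Lgr5+ progenitors (17 and 16 over the pathway lists, 25.5% and 25.5% of all genes).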

Other observations

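The H2- genes lie on chromosome 17 between 33938909 and 37483529, and the other genes of that region were described after the values were seen. Of 160 other rows in the region 82 were above the filter, of which 27 (32.9%) were called higher in Lgr5+ and 20 (24.4%) in Lgr6+ progenitors, beside 23.3% and 28.5% of all genes. Their median difference was -0.29, and that of the 17 members above the filter in the region was -0.74. Of these members, *H2-T9*, *H2-M3*, *Tap2*, *H2-T24*, *H2-DMb2*, *H2-Eb1* and *H2-Ab1* passed the filter only through Lgr5+ progenitors. This largely fixed their direction, so the lower median of the members is no separate result. Neighbouring genes differed widely in both directions. *Aif1*, a macrophage gene, was listed at 0 in Lgr5+ and at 26.6 in Lgr6+ progenitors, and *Lst1*, a leukocyte gene, had 2.76 and 20.2. *Egfl8* had 0.400 and 31.6 and shares its interval with *Agpat1*, which had 26.9 and 10.9. *Psmb8* and *Psmb9*, higher in Lgr6+ progenitors, lie beside *Tap1* and *Tap2*, which had the higher values in Lgr5+ progenitors. *Atf6b*, a factor of the unfolded protein response, had 60.0 and 21.4.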
